A study of Mus musculus with 8 samples.

Results

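The regions described here were open chromatin in mouse liver cells that was listed as a peak in the EpCAM-high Sox9 list and in the Tumor Sox9 list and in none of the other 3 peak lists of the series. Peaks of all 5 lists were merged wherever they overlapped by at least 1 bp, and the merged intervals are called union regions. Of 134740 union regions on the 19 autosomes, 2272 (1.69%) had this pattern. They made up 4.10% of the 55427 union regions with an EpCAM-high Sox9 peak and 5.97% of the 38065 with a Tumor Sox9 peak. Presence and absence in the lists chose the regions, so their pattern is a description and was not tested.

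Accessibility was measured by ATAC-seq, which inserts sequencing adapters into DNA that is not packed away by nucleosomes. Cells came from mice of an Rb family triple knockout model of hepatocellular carcinoma. They were released by enzyme digestion from liver or from visible lesions and sorted for YFP, the sign that Cre had recombined the floxed alleles, and then by the surface proteins Thy1 and EpCAM. The 8 labelled samples fall into EpCAM-high CK19 (2), EpCAM-high Sox9 (1), Thy1+ CK19 (2), Thy1+ Sox9 (1) and Epcam- (2). All groups carry the knockout, and no list of cells with intact Rb genes was used here. The labels do not say which promoter drives Cre, what CK19 and Sox9 stand for in the names, the age or strain of the mice, or how many animals were pooled. The lists named Tumor Sox9, Prog-like CK19 and Prog-like Sox9 carry names that no sample label uses, so they are tied to no sorted group. Each condition had 1 list, so there is no replicate error, no test between conditions was possible, and read depth is unknown. Ranges in brackets after a share or rate are exact 95% confidence limits (Clopper-Pearson), which allow for the number of regions counted and for nothing else. The 5 lists held 39644 (Tumor Sox9) to 71375 (Prog-like CK19) peaks, and a region absent from a list may lie just under its threshold. On chromosome Y the lists named Sox9 held 10 (EpCAM-high), 17 (Tumor) and 22 (Prog-like) peaks, against 1 in EpCAM-high CK19 and 0 in Prog-like CK19. The part of this difference between the Sox9 and CK19 lists in the member pattern was not tested.

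Hepatocytes and the epithelial cells of bile ducts arise from a common embryonic precursor, and EpCAM and Sox9 are known markers of the ductal and progenitor side. Hepatocyte genes are switched on by a set of liver-enriched transcription factors, among them HNF1, HNF4, FOXA and C/EBP proteins, which bind promoters close to the start site and enhancers far from it. The Rb family proteins hold back E2F transcription factors and with them the genes of the cell division cycle.

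Promoters in members are shown first because their sequences can be read. Of 20063 promoter windows of protein-coding genes on the 18 autosomes for which RefSeq sequences (GRCm38.p6) were used, 64 (0.319%) overlapped a member. Each window runs from 250 bases before to 50 bases after an annotated start, and the 64 belonged to 57 genes and 56 members. The sequences given are the 150 bases before the start, on the gene's strand, of 6 genes for plasma proteins or hepatocyte enzymes. They were chosen after the values were seen. All are liver genes whose upstream stretch lies wholly inside a member and holds a match to a liver factor motif. Cyp4f14 also meets this description and is not shown. The same stretches of Fgg, Agt, Mbl1, Apon, Aox3, Kmo, Upp2, Bhmt and Acsm5 lie wholly inside a member and hold no match. Capitals mark matches, on either strand, to CAAAGTCCA (HNF4), GTTAAT (an HNF1 half-site), TGTTTAC (FOXA) and TTGCNNAA (C/EBP). Fga, the fibrinogen alpha chain, is shown at chr3:83026003-83026152, plus strand. Agxt2, a mitochondrial aminotransferase, is at chr15:10358383-10358532, plus strand. Serpina1c, an alpha-1 antitrypsin gene, is at chr12:103904951-103905100, minus strand. Apoc2, the activator of lipoprotein lipase, is at chr7:19677942-19678091, minus strand. Itih1, an inter-alpha-trypsin inhibitor heavy chain, is at chr14:30943290-30943439, minus strand. Ahsg, fetuin-A, is at chr16:22891865-22892014, plus strand.
Fga: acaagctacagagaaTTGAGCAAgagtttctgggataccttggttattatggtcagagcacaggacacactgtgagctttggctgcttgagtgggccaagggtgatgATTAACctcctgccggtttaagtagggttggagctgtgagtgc
Agxt2: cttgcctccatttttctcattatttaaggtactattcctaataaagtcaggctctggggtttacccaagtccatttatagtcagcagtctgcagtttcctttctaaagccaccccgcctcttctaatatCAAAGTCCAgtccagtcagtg
Serpina1c: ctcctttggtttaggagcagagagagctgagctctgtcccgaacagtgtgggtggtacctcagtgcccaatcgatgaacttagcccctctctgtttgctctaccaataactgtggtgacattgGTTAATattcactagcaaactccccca
Apoc2: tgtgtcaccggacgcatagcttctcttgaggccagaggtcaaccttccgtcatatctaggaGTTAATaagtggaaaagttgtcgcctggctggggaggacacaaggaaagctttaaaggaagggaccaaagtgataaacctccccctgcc
Itih1: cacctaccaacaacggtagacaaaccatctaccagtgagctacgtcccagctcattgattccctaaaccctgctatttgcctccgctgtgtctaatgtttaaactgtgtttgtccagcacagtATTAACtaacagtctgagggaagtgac
Ahsg: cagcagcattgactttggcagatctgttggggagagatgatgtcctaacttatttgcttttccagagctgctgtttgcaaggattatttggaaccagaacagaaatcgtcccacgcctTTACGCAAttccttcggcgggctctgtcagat
The HNF1 matches began 43 bases before the start of Fga and 27 bases before the starts of both Serpina1c and Itih1. That of Apoc2 lay farther out, 89 bases before the start. The HNF4 match of Agxt2 began 21 bases and the C/EBP match of Ahsg 32 bases before the start. A match is a description of letters and not a measured binding site.

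At the Fga promoter (chr3:83025633-83026564) the deposited fold enrichment was 8.001 in the EpCAM-high Sox9 list and 5.06 in the Tumor Sox9 list. The deposited −log10 q values, which grow with the strength of a peak, were 15.7 and 15.98. The nearest peak of EpCAM-high CK19, Prog-like CK19 and Prog-like Sox9 was 26230, 26345 and 23138 bp away. Fga was thus listed in both holding lists at middling strength, far from any peak of the other 3. The promoter of its neighbour Fgg, the fibrinogen gamma chain, was a member too (chr3:83007448-83007906), with a fold of 7.70 and 4.93 and −log10 q of 12.4 and 15.5. Between the 2 genes lay another, stronger member (chr3:83020122-83020874), 5066 bp from Fgg and 5279 bp from Fga, with a fold of 14.6 in EpCAM-high Sox9 and 6.54 in Tumor Sox9 and −log10 q of 43.9 and 20.7. The 3 members of the fibrinogen cluster therefore covered 2 promoters and the interval between them.

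The Agxt2 member (chr15:10357807-10358833) had a fold of 6.43 in EpCAM-high Sox9 and 9.34 in Tumor Sox9, and −log10 q of 8.72 and 20.8. Serpina1c (chr12:103904911-103905261) had a fold of 5.22 and 6.67 and −log10 q of 5.82 and 10.02. Serpina1c is 1 of several near-identical Serpina1 copies, and how reads shared between copies were placed is not given in the sources used here. Apoc2 (chr7:19677799-19678196) had a fold of 6.43 and 4.87 and −log10 q of 8.72 and 8.19. The weakest of the 6 was Itih1 (chr14:30943126-30943445), with a fold of 4.02 and 3.42 and −log10 q of 3.23 and 4.08, and a Prog-like CK19 peak lay 509 bp away. Ahsg had 3 members, at its start (chr16:22891628-22892411), 4849 bp from the gene, and at its far end. At the start the fold was 3.92 and 4.04 and −log10 q 3.10 and 10.1, and at the far end −log10 q was 4.01 and 23.1. Values of the 2 lists were made separately, so they rank a region within its list and give no difference in accessibility between lists.

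The other member promoters were of several kinds, and on the hepatocyte list used here only Fga and Fgg had one. Further genes known from liver were Apon (an apolipoprotein), Mbl1 (mannose-binding lectin), Cpb2 (a plasma carboxypeptidase of fibrinolysis), Agt (angiotensinogen), Lipc (hepatic lipase) and Tfr2 (transferrin receptor 2, an iron sensor). Enzymes were Acsm5, a medium-chain acyl-CoA synthetase, Aox3, an aldehyde oxidase, Kmo of tryptophan breakdown, Upp2, a uridine phosphorylase, Cyp4f14, a cytochrome P450, and the neighbours Bhmt, Bhmt2 and Dmgdh of betaine metabolism. Bhmt2 and Dmgdh start close together on opposite strands. Many are not known as hepatocyte genes. Cldn14 is a claudin of tight junctions, Lcn2 an iron-binding protein of inflammation, Pparg a regulator of fat cells, and Lhx4 and Prtg are genes of the developing nervous system. Trak1, Olfml1, Olfm3, Fibin, Fxyd1, Anks1b, Prelp, Gfra1, Arhgef7, Pygo1, Mpp2, Egfl7 and Rasl10a were among the rest. At Lhx4, Fxyd1, Anks1b, Prelp and Rasl10a the member overlapped the promoter window without covering the start.

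**Figure D1:**
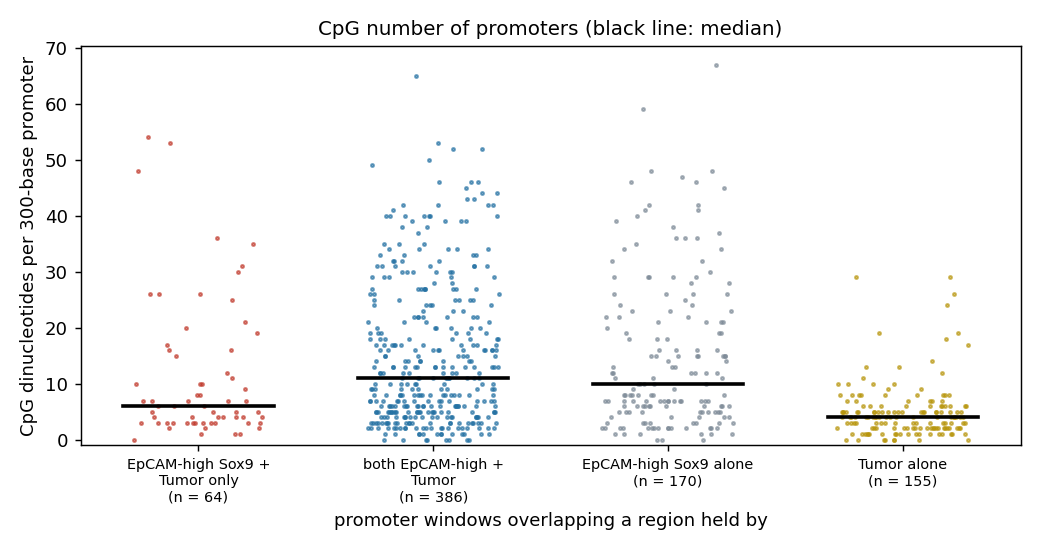
Number of CpG dinucleotides per 300-base promoter window (vertical axis), for windows overlapping a region held by EpCAM-high Sox9 and Tumor only, by both EpCAM-high lists and Tumor, by EpCAM-high Sox9 alone and by Tumor alone. Each point is 1 window, horizontal spread is only for display, and the black lines are the medians of 6, 11, 10 and 4.

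Member promoters were poor in CpG, the dinucleotide that is dense at promoters of broadly expressed genes. Their median was 6 CpG per window (quartiles 3 and 16), against 14 over all 20063 windows and 23 for the 9082 windows with a region held by all 5 lists. The plot of CpG number shows that they lay between the 155 windows with a region held by Tumor Sox9 alone (median 4) and the 386 windows of regions held by both EpCAM-high lists and Tumor Sox9 but neither Prog-like list (median 11). That last class, called epithelial regions below, is the nearest comparison to the members, from which it differs by the EpCAM-high CK19 peak. Windows without any peak had a median of 3. The G+C content was 54.8% in members, 59.0% in epithelial windows, 49.3% with Tumor Sox9 alone and 57.0% over all windows.

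Letters of liver factor motifs were counted in the same windows on both strands. The HNF1 half-site occurred in 11 of 64 member windows (17.2%, 8.90 to 28.7), in 11.1% of epithelial windows, in 21.3% with Tumor Sox9 alone and in 6.23% of all. The C/EBP letters occurred in 14 member windows (21.9%, 12.5 to 34.0), against 9.84% of epithelial windows, 21.9% with Tumor Sox9 alone, 13.6% without a peak and 10.3% of all windows. At least 1 of the 4 liver motifs was in 24 member windows (37.5%, 25.7 to 50.5), against 24.6% of epithelial windows, 21.2% with EpCAM-high Sox9 alone, 44.5% with Tumor Sox9 alone and 18.4% of all. Windows without a peak, which are CpG-poor as well, held at least 1 of the 4 in 24.7%. The members' interval starts near the share of windows without a peak and includes that of Tumor Sox9 alone. The ETS letters CCGGAAG, common at CpG-rich promoters, were in 1 member window (1.56%) against 11.9% of all, and the E2F letters TTTCCCGC in 0 of 64 (up to 5.60%) against 1.41%. The 64 windows belonged to 57 genes, and windows of 1 gene can overlap, as those of Cyp4f14 and of Agxt2 do. A match can then be counted more than once, and the limits do not allow for this. The 4 liver motifs can overlap one another, and the counts do not show binding.

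Promoters were nevertheless a small part of the members, which lay mostly far from genes' starts. A region was placed at a gene end when it overlapped the 1000 bp on either side of the start or the end of a protein-coding gene. Gene ends held 126 members (5.55%, 4.64 to 6.57), against 11.9% of all union regions and 9.21% of epithelial regions. Gene bodies held 1126 (49.6%, 47.5 to 51.6), against 42.1% of all and 44.7% of epithelial regions. The remaining 1020 (44.9%, 42.8 to 47.0) lay between genes, against 46% of all. Members were thus less often at gene ends and more often inside genes than the union as a whole. The union also counts regions held by the other lists, which cannot be members, so its shares depend on where those lie. The difference was not tested. Regions held by Tumor Sox9 alone were at gene ends in 4.61% and between genes in 59.1%, and those held by EpCAM-high Sox9 alone in 4.41% and 51.6%.

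**Figure D2:**
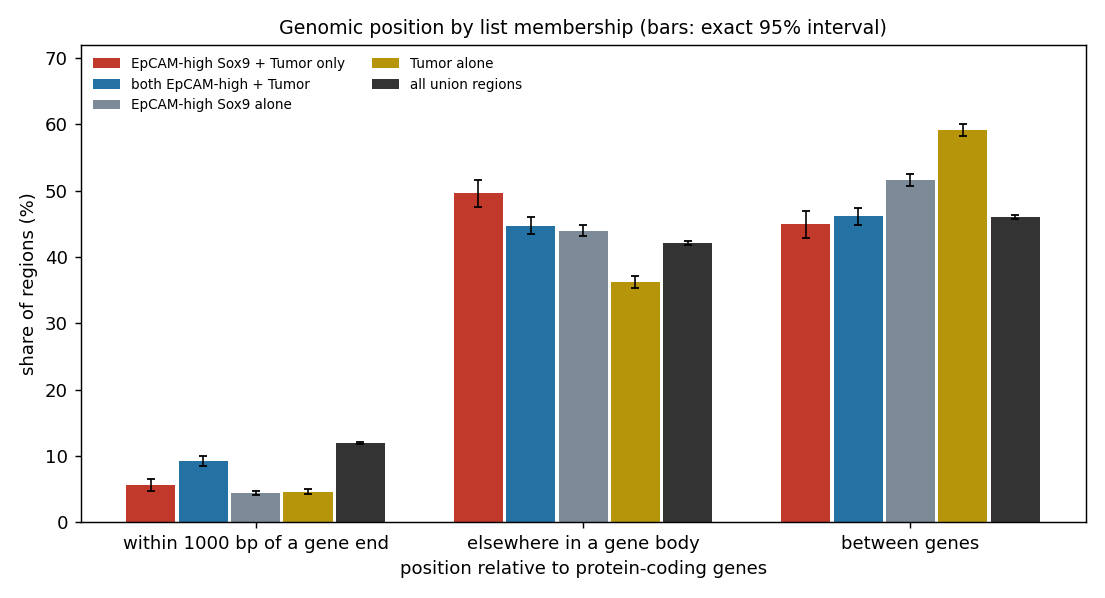
Share of regions (vertical axis, percent) within 1000 bp of a gene end, elsewhere in a gene body and between genes, for the 5 classes of regions. Bars are shares and lines exact 95% intervals; the members' gene-end share of 5.55% is below the 11.9% of all union regions and their gene-body share of 49.6% is the highest of the 5 classes.

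Measured to annotated transcription starts, 51 of the 2178 members on the 18 autosomes with start sites lay over a start (2.34%, 1.75 to 3.07), against 7.82% of all union regions, 5.56% of epithelial regions and 1.16% of regions with Tumor Sox9 alone. The median distance to the nearest start was 49078 bp for members, 45262 bp for all regions, 42797 bp for epithelial regions, 66005.5 bp with EpCAM-high Sox9 alone and 113404 bp with Tumor Sox9 alone. Beyond 100 kb from any start were 709 members (32.6%). Members were therefore about as far from starts as the union, although few lay directly over one. Of the 126 gene-end members, 40 lay over a start, 18 more lay within 1 kb of one, and 68 were farther off, at the other end of a gene or at a start the start-site table does not hold.

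Width follows in part from the merging, since a member joins peaks of 2 lists, an epithelial region peaks of 3 and a single-list region peaks of 1. The members' median width was 496.5 bp (216 to 2388), against 697 bp for epithelial regions, 212 bp with EpCAM-high Sox9 alone and 330 bp with Tumor Sox9 alone. The 2 peaks of a member overlapped by a median of 233 bp, with a smallest overlap of 2 bp, and in 96.3% of members they shared at least 50% of the shorter peak. Their summits, the points of highest signal, were a median of 57 bp apart, and 1665 members (73.3%) had summits within 100 bp. Epithelial regions gave 55 bp and 70.6%, so the summits of the 2 lists coincided about as closely in both classes.

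**Figure D3:**
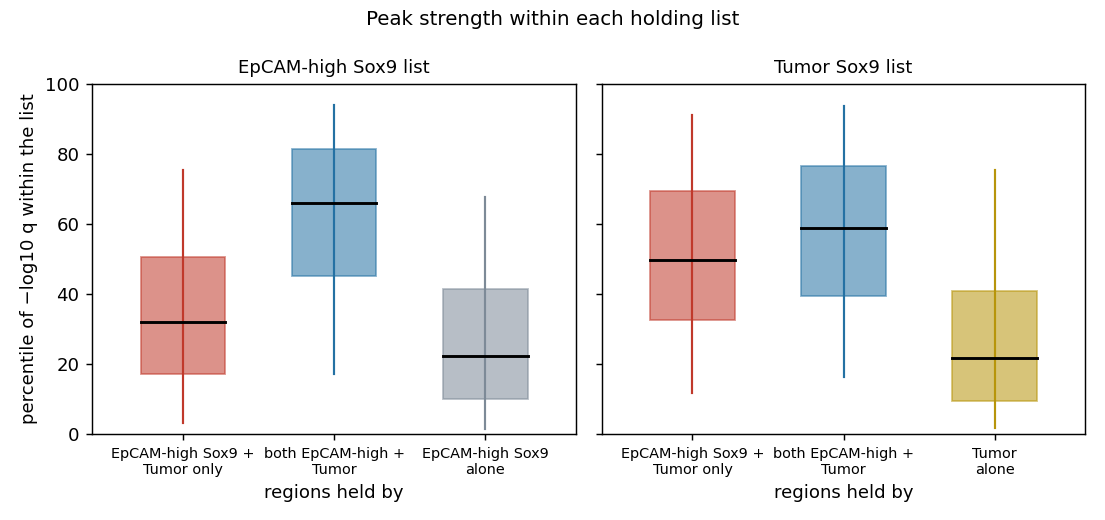
Percentile of the deposited −log10 q within its own list (vertical axis, 0 weakest and 100 strongest) in the EpCAM-high Sox9 list (left) and the Tumor Sox9 list (right), by which lists hold the region. Boxes span the quartiles, black lines are medians and thin lines run from the 5th to the 95th percentile of regions; members have a median of 32.02 on the left and 49.6 on the right.

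In the EpCAM-high Sox9 list members had a median fold enrichment of 5.62 and a median −log10 q of 7.72 (1.46 to 76.0). This put them at a median percentile of 32.02 within that list (quartiles 17.3 and 50.6), against 65.9 for epithelial regions and 22.4 for regions held by EpCAM-high Sox9 alone. In the Tumor Sox9 list their median fold was 5.72 and their median −log10 q 8.78 (1.32 to 90.4), a median percentile of 49.6 (32.7 to 69.4) against 58.8 for epithelial regions and 21.7 for Tumor Sox9 alone. The members thus stood in the middle of the Tumor Sox9 list and in the lower part of the EpCAM-high Sox9 list, as the plot of percentiles shows. The percentile was higher in Tumor Sox9 for 1621 members (71.3%), and 357 (15.7%) were in the upper part of both lists, above the 50th percentile. The strongest 10% of a list held 132 members in Tumor Sox9 (5.81%) and 9 in EpCAM-high Sox9 (0.396%). Across the 2272 members the strengths in the 2 lists had a Spearman rho of 0.20, against 0.37 across the 6211 epithelial regions, which is a description of regions that share their libraries. Many members had the same deposited values: 114 (5.02%) had a fold of 4.42 with −log10 q of 4.06 in EpCAM-high Sox9, and 69 (3.04%) a fold of 4.50 with 4.30 in Tumor Sox9.

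Close to the thresholds, 28 members had a −log10 q under 2 in EpCAM-high Sox9 and 22 in Tumor Sox9, and the lowest values were 1.46 and 1.32. Just outside the pattern were regions held by both lists and 1 more. With an EpCAM-high CK19 peak there were 6211, the epithelial regions, and their lowest −log10 q in that further list was 1.44 and the median 23.3. With a Prog-like CK19 peak there were 106 (lowest 1.86, median 7.15), and with a Prog-like Sox9 peak 48 (lowest 1.73, median 8.24). Most regions open in both EpCAM-high Sox9 and Tumor Sox9 and missing in the Prog-like lists thus had an EpCAM-high CK19 peak, in general well above its threshold. The nearest peak of any of the 3 lists without the region was a median of 5311 bp away. It was within 500 bp for 124 members (5.46%) and beyond 10 kb for 735 (32.4%). By list the median distance was 9791 bp to EpCAM-high CK19, 10158.5 bp to Prog-like CK19 and 11610 bp to Prog-like Sox9.

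The members with the highest combined rank in the 2 lists lay mostly away from promoters. First was a region 2477 bp from Ndfip2, an adaptor of ubiquitin ligases (chr14:105255652-105256114), with a fold of 8.80 in EpCAM-high Sox9 and 6.62 in Tumor Sox9 and −log10 q of 74.0 and 48.9. Peaks of the other 3 lists lay 1475 to 2311 bp from it. In Ttll7, a tubulin glutamylase gene, the member chr3:146875737-146876402 had a fold of 15.9 and 13.7 and −log10 q of 57.7 and 51.6. A region 62787 bp from Ripply2 (chr9:86951973-86952750) had a fold of 16.5 and 10.1 and no peak of the other lists within 68806 bp. The member nearest to Mgat4c (chr10:101238223-101238753) was 442734 bp from it, with a fold of 16.7 and 13.4. The next 6 were in Tenm3, 282716 bp from Rbms1, in Arhgap18, in Bbx, 7491 bp from Fut10 and 36600 bp from Dcn. None of these 10 was at a gene end, 4 were in gene bodies and 6 between genes. Gene ends held 5.55% of all members, so none in 10 is the usual count.

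At gene ends the 10 strongest by the same rank were at Xpr1, Them7, Trim3, Fga, Bmf, Aspg, Hmgcs1, Rnf212, Plxna2 and Fgg. Of these, the members at Them7, Fga, Aspg and Fgg overlapped a promoter window and the others did not. Hmgcs1, the cytosolic HMG-CoA synthase of cholesterol synthesis, had a fold of 7.80 and 6.68 and −log10 q of 14.4 and 15.03 (chr13:119707811-119708526). Xpr1, a phosphate exporter, had 10.6 and 7.06, with −log10 q of 20.7 and 15.8 (chr1:155274838-155275565). Bmf, a BH3-only promoter of cell death, had 7.90 and 6.54 (chr2:118529184-118529886). The member at Trim3 (chr7:105603066-105603476) lay 2950 bp from Hpx, the plasma haem carrier hemopexin. Their percentiles were 49.0 to 68.9 in EpCAM-high Sox9 and 45.3 to 82.3 in Tumor Sox9. Those of the 10 strongest members anywhere ran from 82.9 to 94.2 and from 90.1 to 98.7. As none of the latter was at a gene end, the lower ranks here follow from the selection.

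A gene was assigned each member within its body or 10 kb of it. At least 1 member was found at 1355 of 20665 protein-coding genes (6.56%) and at least 2 at 253 (1.22%). Genes with a member were long, with a median of 60.5 kb against 17.5 kb for all genes, so counts per gene follow gene length in part and are given beside the number of union regions. The prolactin receptor gene Prlr (chr15:10177238-10349190) had 6 members among its 9 union regions. It held 8 peaks in EpCAM-high Sox9, 8 in Tumor Sox9 and 0 in each of the other 3 lists. The 6 members of Prlr had a fold of 4.34 to 8.54 in EpCAM-high Sox9 and 4.69 to 9.34 in Tumor Sox9. The first lies just inside the start of Prlr without covering it (chr15:10177597-10178549), with −log10 q of 4.19 and 9.89. A promoter window of Prlr overlapped a region held by Tumor Sox9 alone. The last member is the promoter of Agxt2 described above. Prlr thus had peaks in these 2 lists and in no other.

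Acsm5 (chr7:119526131-119543360) had 4 members among 8 union regions, with 6 EpCAM-high Sox9 peaks, 7 Tumor Sox9 peaks and 0 in the other 3 lists. An EpCAM-high CK19 peak lay just beyond the 10 kb flank, from −10.358 to −10.157 kb of the start of Acsm5. It overlapped a Tumor Sox9 peak counted here, so that union region is shared with EpCAM-high CK19. The 4 members were weak in EpCAM-high Sox9, with −log10 q of 10.02, 6.04, 2.57 and 2.45, and of 4.21, 6.28, 6.87 and 2.74 in Tumor Sox9. The last of them lies nearest to Acsm2, and the first 3 also lie in or near Pdilt, which overlaps the start of Acsm5. Pitpnm2, a phosphatidylinositol transfer protein gene, had 4 of 8, with 6 and 7 peaks in the holding lists and 1, 2 and 1 in EpCAM-high CK19, Prog-like CK19 and Prog-like Sox9. Among the 12 genes with most members, Prlr, Acsm5 and Pitpnm2 were the 3 where at least 50% of the union regions were members. With each list reduced to its strongest 39644 peaks, the length of the shortest, Prlr had 3 members, Acsm5 1 and Pitpnm2 0.

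**Figure D4:**
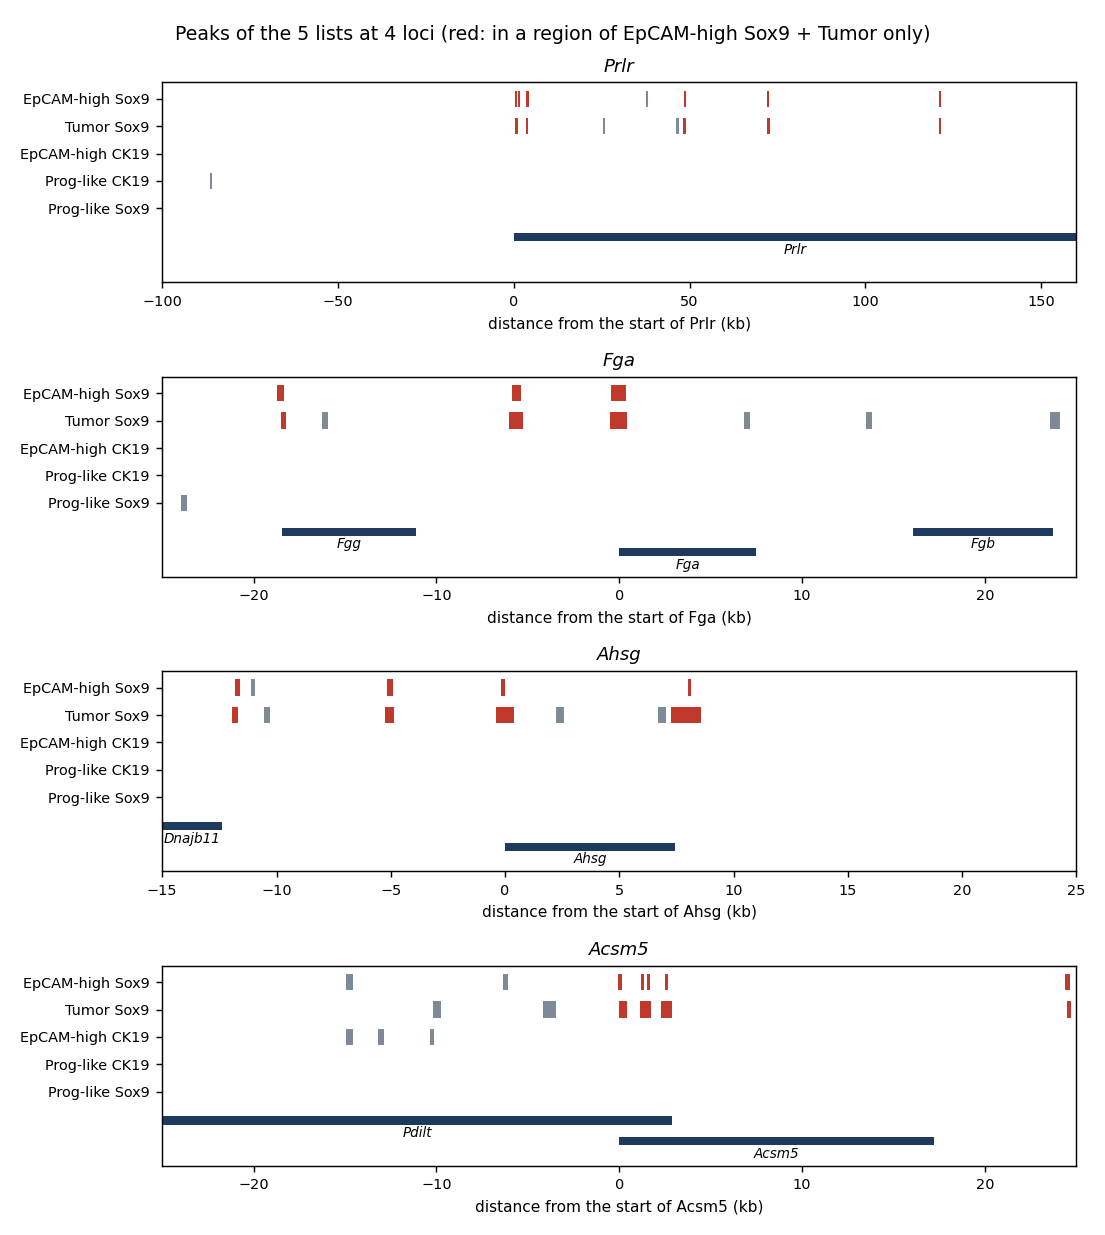
Peaks of the 5 lists (rows) around the starts of Prlr, Fga, Ahsg and Acsm5, by distance from the start in kb (horizontal axis). Red peaks belong to members, grey peaks to other regions and dark bars are genes; 5 of the 6 members of Prlr fall in its window, and around Ahsg no list other than the 2 holding ones has a peak.

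The other genes with most members had open chromatin in more lists. Wwox, a large gene at a fragile site, had 6 members of 40 union regions, with 21 and 12 peaks in the holding lists and 12, 16 and 16 in EpCAM-high CK19, Prog-like CK19 and Prog-like Sox9. Tenm3, a teneurin of cell adhesion, had 6 of 38, with 16, 23, 14, 0 and 4 peaks in EpCAM-high Sox9, Tumor Sox9, EpCAM-high CK19, Prog-like CK19 and Prog-like Sox9. The 6 members in Tenm3 included 4 at percentiles above 91 in Tumor Sox9, with a fold of 9.57 to 11.9 there and 9.08 to 13.7 in EpCAM-high Sox9. Cdh2, N-cadherin, had 5 of 17, with 12, 11, 4, 2 and 1 peaks in the same order. The axon growth gene Nav2 had 5 of 73. Plekhm3 had 4 of 27, Zbtb16, the transcription factor PLZF, 4 of 29, Nos1ap 4 of 19, Zbtb7c 4 of 52 and Snd1 4 of 37. At equal list length Tenm3, Cdh2 and Zbtb7c had as many members as before, Nos1ap and Snd1 had 3, Wwox and Nav2 3, Plekhm3 1 and Zbtb16 0. In these genes members were a minority among open regions that other lists share.

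Members were spread over all autosomes, from 1.12% of union regions on chromosome 4 (0.898 to 1.37) to 2.00% on chromosome 1 (1.75 to 2.29). Most stood alone: 2023 had neighbours of another pattern on both sides, while 99 runs of 2, 12 runs of 3 and 1 run each of 4, 5 and 6 had no other union region between. The run of 6 spanned 155 kb from inside Prlr to Agxt2 (chr15:10225499-10380509). The run of 5 was in Wwox (37.2 kb), that of 4 at Acsm5 and Acsm2 (24.8 kb), and runs of 3 lay in Cdh2 (6.11 kb) and at Slc38a3, a glutamine transporter gene (8.63 kb). By 1 Mb windows the most members were 10 of 105 union regions in chr16:10000001-11000000, nearest to Ciita, Clec16a, Dexi, Litaf and Prm1. In chr15:10000001-11000000 there were 9 of 59, at Prlr, Agxt2 and C1qtnf3. Next came 8 of 115 near Lacc1 and Serp2 (chr14:76000001-77000000), 7 of 43 in and beside Klf12, a Krüppel-like repressor (chr14:100000001-101000000), and 7 of 89 at Nfkb1, Manba and Slc39a8 (chr3:135000001-136000000).

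Genes were then read by lists of liver cell types and pathways, with members counted per 1000 union regions at the list's loci, each region once, against 16.9 per 1000 over all autosomal regions. Hepatocyte genes had the highest rate of the 22 lists. Members were found at 8 of 30 hepatocyte genes, 9 members of 146 regions in all, or 61.6 per 1000 (28.6 to 114). Fga and Fgg had 2 each, of which 1 is the same region between them, and the other genes were Alb (albumin), Tat (tyrosine aminotransferase), Cyp7a1 (the rate-limiting enzyme of bile acid synthesis), Hpx, Hp (haptoglobin) and the nuclear receptor gene Nr1i3. Of the same list, epithelial regions made up 144 per 1000 (46.1 over all regions), those with EpCAM-high Sox9 alone 27.4 (93.6) and those with Tumor Sox9 alone 288 (84.9). The hepatocyte loci held 71 peaks in EpCAM-high Sox9 and 98 in Tumor Sox9, against 66 (EpCAM-high CK19), 48 (Prog-like CK19) and 45 (Prog-like Sox9), and 26, 28, 24, 18 and 18 of the 30 genes had any peak. Every list therefore held peaks at some hepatocyte loci, in each Prog-like list at only 18 of the 30 genes. The members, 9 of the 146 regions, were a small addition that EpCAM-high Sox9 and Tumor Sox9 had in common. In sorted bulk cells, a few cells of another type and weak accessibility in all cells cannot be told apart.

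At Alb the member chr5:90473957-90474638 in the gene body had a fold of 4.02 in EpCAM-high Sox9 and 3.14 in Tumor Sox9 and −log10 q of 3.23 and 4.998. A second member, chr5:90424265-90425540, lay 35330 bp from Alb, with a fold of 6.03 and 7.85 and −log10 q of 7.72 and 14.2. At Cyp7a1 the member 7094 bp from the gene (chr4:6258057-6258518) had a fold of 12.8 and 5.62 and −log10 q of 28.7 and 6.90, and another lay 19098 bp off.  At Hp the member 5161 bp from the gene (chr8:109584333-109585311) had a fold of 5.22 and 4.78 and −log10 q of 5.82 and 12.1. At Alb and Hp the member thus ranked higher in Tumor Sox9, and at Cyp7a1 in EpCAM-high Sox9.

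**Figure D5:**
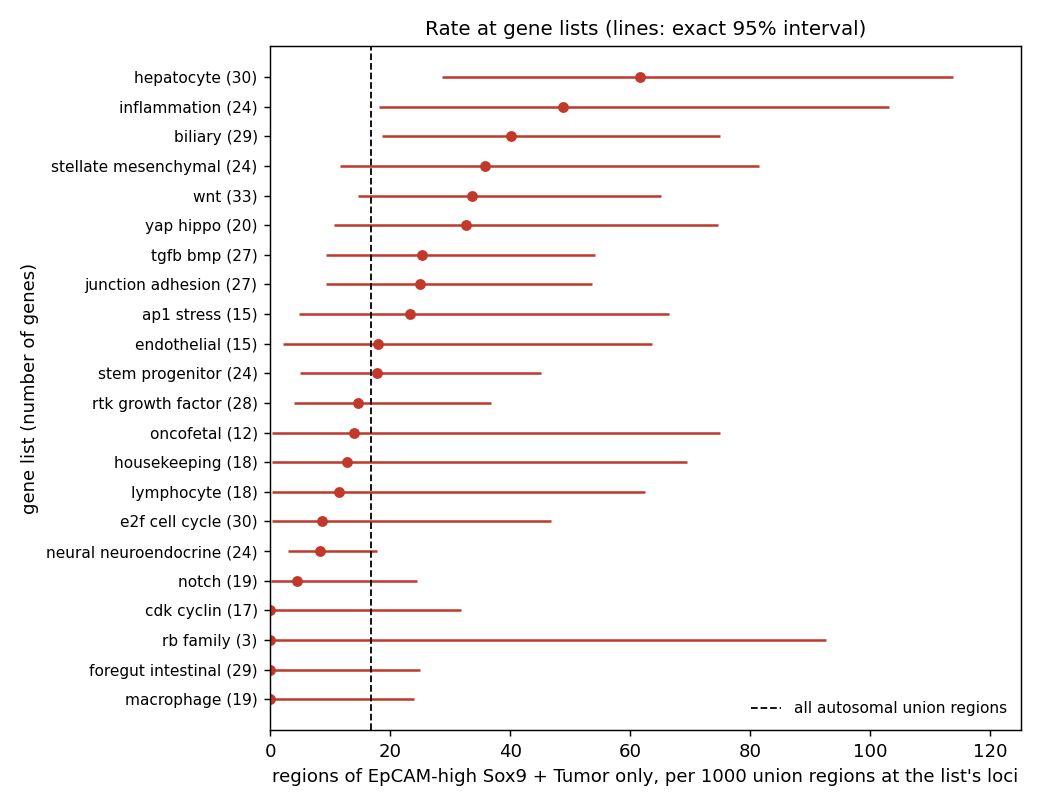
Members per 1000 union regions (horizontal axis) in the gene bodies and 10 kb flanks of 22 gene lists, with the number of genes in brackets. Points are rates, lines exact 95% intervals and the dashed line is the rate over all autosomal union regions, 16.9 per 1000; hepatocyte genes are highest at 61.6, and 4 lists have no member.

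Biliary genes held members at 7 of 29 genes, 9 members or 40.2 per 1000 (18.5 to 74.9). They were Pkhd1 (fibrocystin) and Bicc1, 2 each, both genes of cystic duct disease, and Krt23, Cdh1 (E-cadherin), Onecut1, Onecut2 and Muc1 with 1 each. This rate did not hold when every list was reduced to 39644 peaks: 2 of 29 biliary genes then had a member, 11.8 per 1000 against 19.2 over all regions, while hepatocyte genes were at 7 of 30 and 62.02. With the full lists, epithelial regions made up 161 per 1000 at biliary loci (46.1 over all regions). Regions with EpCAM-high Sox9 alone made up 143 (93.6) and those with Tumor Sox9 alone 53.6 (84.9). The biliary markers Sox9, Krt19 and Epcam had no member. Krt19, the gene of CK19, held 6 EpCAM-high Sox9 peaks, 4 EpCAM-high CK19 peaks and 0 in Tumor Sox9 and both Prog-like lists. Sox9 held 3, 3, 4, 1 and 0 peaks in EpCAM-high Sox9, Tumor Sox9, EpCAM-high CK19, Prog-like CK19 and Prog-like Sox9, and Epcam 2, 1, 2, 3 and 3. Thy1 had no peak in any list. Afp, the fetal albumin relative, and Hnf4a had no member either, with 1 and 5 peaks in EpCAM-high Sox9 and 4 and 6 in Tumor Sox9. With 6.56% of all genes having a member, none is the usual count for so few genes.

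Inflammation genes held 6 members at 4 of 24 genes (48.8 per 1000, 18.1 to 103), of which 3 were at Nfkb1 and 1 each at Saa1 (serum amyloid A), Lcn2 and Il6ra (the interleukin 6 receptor). The member at the start of Lcn2 (chr2:32387409-32388332) had a fold of 8.19 and 4.78 and −log10 q of 13.7 and 6.46. In the Il6ra gene body (chr3:89872243-89872783) the fold was 12.5 and 4.50 and −log10 q 26.3 and 4.30. At equal list length Nfkb1 had 1 member. Saa1 had a weak member with a Prog-like Sox9 peak 237 bp away. Serum amyloid A is an acute-phase protein of hepatocytes, as are the fibrinogens, haptoglobin and hemopexin.

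Signalling lists were closer to the background. Wnt genes had members at 6 of 33 (33.6 per 1000, 14.6 to 65.2), with 2 each at the co-receptor Lrp6 and the R-spondin receptor Lgr4. Hippo pathway genes had them at 3 of 20 (32.7, 10.7 to 74.6): Tead1 with 3, and Tead4 and Vgll4, which like Tead1 encode DNA-binding partners or cofactors of that pathway. At equal list length Tead1 and Lrp6 had 1 member each. TGF-beta and BMP genes had members at 5 of 27 (25.2), junction genes at 6 of 27 (25), AP-1 genes at 2 of 15 (23.3) and growth factor receptor genes at 4 of 28 (14.5), among them Met, Insr and Fgfr2. Notch genes had 1 member, in Notch2, of 225 union regions (4.44, 0.113 to 24.5). Of the 22 lists, only the hepatocyte, inflammation and biliary lists had an interval wholly above 16.9. These intervals are no test, since the lists were chosen with earlier results known. The rate also counts regions with Prog-like peaks, which cannot be members, so it depends on how many of those a list has.

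The lists of other cell types and of cell division all had intervals that include the rate of 16.9. Macrophage genes had 0 members at 19 genes and 152 union regions (up to 23.98 per 1000), although all 19 had peaks in both Prog-like lists. Stellate and mesenchymal genes had 5, all in Cdh2, 1 of 24 genes (35.7 per 1000, 11.7 to 81.4). Endothelial genes had 2 at 15 genes, Vwf and Stab2 (18.0, 2.19 to 63.6), lymphocyte genes 1 at 18, Ebf1 (11.5, 0.291 to 62.4), and foregut and intestinal genes 0 at 29 (up to 24.9). Neural and neuroendocrine genes had 6 members in 729 union regions (8.23, 3.03 to 17.8). The E2F and cell cycle list had 1 member at 30 genes, at Aurka (8.55, 0.216 to 46.7), the list of cyclins, their kinases and inhibitors 0 at 17 (up to 31.8), and Rb1, Rbl1 and Rbl2 none (up to 92.5). Housekeeping genes had 1 at 18, at Ppia (12.8, 0.325 to 69.4). None of these lists can be told from the background at this number of regions.

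Gene families were grouped by symbol after the genes with members had been seen, so their rates are descriptions only. Apolipoprotein genes had 4 members at 5 of 17 genes (85.1 per 1000, 23.7 to 204): Apoc1, Apoc2, Apoc4 and Apoe, neighbours on chromosome 7 to which the same member can be assigned, and Apon. Fibrinogen and coagulation factor genes had 6 at 4 of 10 (128 per 1000, 48.3 to 257), Fga, Fgg, F5 and F11. The F11 member lay 1966 bp from the gene, with −log10 q of 7.84 in EpCAM-high Sox9 and 4.12 in Tumor Sox9. Medium-chain acyl-CoA synthetases had 5 at 3 of 5 genes (238 per 1000, 82.2 to 472), Acsm1, Acsm2 and Acsm5, also neighbours on chromosome 7. Cytochrome P450 genes had 7 at 7 of 99 (31.96, 12.9 to 64.7) and serpins 4 at 6 of 62 (23.4, 6.41 to 58.8), of which Serpina10, Serpina11, Serpina1c, Serpina6, Serpina9 and Serpina16 lie in the Serpina cluster. Claudins had 4 at 3 of 23 genes (57.1, 15.8 to 139.9), which were Cldn3, Cldn4 and Cldn14. Solute carriers had 36 at 32 of 362 (16.6), collagens 5 at 5 of 42 (17.99), keratins 1 at 53, zinc-finger genes 5 at 388 (3.94, 1.28 to 9.18) and olfactory receptor genes 2 at 3 of 1104 (3.03, 0.367 to 10.9). Because members helped to choose the families, and neighbouring genes can share members, these intervals cannot test a family against the rate of 16.9.

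Of 919 miRNA hairpins, 9 had a member within 1 kb. How many had any union region as near was not counted, so these 9 are given as positions only. They included Mir22 (535 bp), Mir30a (422 bp) and Mir92b (224 bp), and a single member on chromosome 12 lay within 1 kb of Mir136, Mir3071 and Mir432, which sit in the imprinted Dlk1 and Meg3 region. That member had a fold of 5.22 in EpCAM-high Sox9 and 7.82 in Tumor Sox9.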

How the data were processed

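ATAC-seq peak lists of 5 conditions were analysed. Build mm10 and the tools MACS2, HOMER, deepTools and Bowtie 1.1.2 were used, in no stated order, per the submitters' processing notes. For pooling, read shifting, duplicate removal and depth, the treatment is not given in the sources used here. Each deposited list gives, per peak, a score, a fold enrichment (a linear ratio) and −log10 p and −log10 q values made by the authors, in the narrowPeak layout, with the summit's offset. These are the authors' values. They were used only to describe and rank peaks within their list, and the score was not used.

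Members and gene lists were chosen with earlier results of these data known. Peaks were merged at a minimum overlap of 1 bp with Python 3.11.15, pandas 2.3.3, numpy 2.4.6 and SciPy 1.17.1, and figures drawn with matplotlib 3.10.9. The merging and overlap step was tested on simulated data. Where a region held several peaks of a list, the strongest was taken. Percentiles rank −log10 q within the whole list. Genes came from RefSeq (GRCm38.p6, the build also called mm10): 20665 autosomal protein-coding genes, without strand or exons, so exons and introns were not separated. Start sites and promoter sequences covered 18 autosomes, and sequences of members away from promoters were not used here.

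Gene lists (22, with 486 entries, of which 474 matched an autosomal protein-coding gene) were counted with 10 kb flanks, and a region near several genes of a list was counted once in its rate. Genes were named by rule: the 10 members and 10 gene-end members with the lowest summed ranks, the 12 genes with most members, list genes with at least 2 members and up to 3 per list with 1, the 5 fullest 1 Mb windows and 5 longest runs, and Sox9, Krt19, Epcam, Thy1, Rb1, Rbl1, Rbl2, Afp, Alb and Hnf4a. Promoter genes, the remaining hepatocyte and biliary genes and family members were named after their values were seen. No p-value was computed, since each condition had 1 list and regions are not replicates. Alternatives were equal list length (the 39644 peaks with the highest −log10 p), a −log10 q minimum of 5, a 500 bp gap to other lists, 50% overlap, 50 kb flanks, a 2500 bp gene-end window, all annotated genes and leaving out chromosome 1. Absence from fewer lists and the gene families were added after seeing the data.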

Additional observations from a re-analysis of the deposited data

Results flagged for a closer look

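Outside the autosomes, 40 of 3855 union regions on chromosome X had the same pattern of lists (1.04%, 0.742 to 1.41), against 1.69% of the autosomal regions. On chromosome Y there were 2 of 28, and on unplaced sequences 0 of 152 (up to 2.40%). These regions entered no count above.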

How the results depend on the processing

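The number of members was 1320 when both holding lists needed a −log10 q of 5, and 8483 when only absence from the Prog-like lists was asked, a rule added after seeing the data. With equal list length, a −log10 q of 5 in all lists, a 500 bp gap, 50% overlap, no chromosome 1, or absence from EpCAM-high CK19 only (added after seeing the data) it was 1543 to 3081. The 1686 regions found at equal list length overlapped 1098 of the 2272 members (48.3%). The gene-end share was 6.76% at equal list length, 8.23% and 8.83% when absence from the Prog-like lists or from EpCAM-high CK19 alone was asked, 10.4% with a 2500 bp window and 11.6% with all annotated genes. The gene-body share was 46.0% with absence from the Prog-like lists only, 47.1% with the wider window and 54.97% with all genes. The share between genes was 42.5% and 33.4% under the last 2. Shares of all union regions at equal list length, with the wider window or with all genes are not given here. The members' shares under those settings therefore cannot be set against the 11.9%, 42.1% and 46% of all union regions above. Hepatocyte genes with a member numbered 15 with 50 kb flanks, macrophage genes 3 with 50 kb flanks (11.9 members per 1000 regions against 16.9), and biliary genes 2 at equal list length. Of 24 genes named for their members, 18 had fewer at equal list length and 3 of them none. The cause of these changes was not tested, except that fewer peaks and wider windows change counts by construction. No paired analysis was possible because each condition had 1 peak list with no replicate columns. Weak members, near the threshold of a q of 0.05, are the least certain, and the depth behind them is unknown.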
